A study of Homo sapiens with 6 samples.

Results

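The genes examined here are the 10 that form the switch for entry into mitosis, namely the kinase CDK1, its cyclins CCNA2, CCNB1 and CCNB2, the inhibitory kinases PKMYT1 and WEE1, the phosphatases CDC25A, CDC25B and CDC25C, and the kinase PLK1. They were taken by symbol from the 63129 genes listed in the expression table, and each of the 10 symbols had a single row. RNA-seq had been done on 6 libraries of ERRAS cells, which are IMR90 human fetal lung fibroblasts carrying a retroviral, tamoxifen-activated fusion of oncogenic H-RasV12 to the estrogen receptor. In 3 libraries the cells were left uninduced (control mitotic cells), and in 3 RasV12 had been induced for 4 days (Ras-induced mitotic cells). All 6 came from cells arrested with 1 μM dimethylenastron (DME), which blocks the spindle kinesin Eg5, and collected as detached mitotic cells. The controls carried the same construct but received no inducer, so that Ras activity and the inducer cannot be told apart as sources of a difference. The labels give the inducer as 100 nM tamoxifen, whereas the study's methods name 4-hydroxytamoxifen and state the same figure in ng/ml.

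Entry into mitosis is driven by CDK1 bound to cyclin B. Until the end of G2, WEE1 and the membrane-bound PKMYT1 (Myt1) hold CDK1 inactive by phosphorylating its ATP-binding loop, and CDC25 phosphatases remove those phosphates. PLK1 and active CDK1 in turn stimulate CDC25 and restrain WEE1 and PKMYT1, which makes entry abrupt. The question addressed by the comparison was whether mRNA of these genes differed between control and Ras-induced cells that had both already entered mitosis. Values are FPKM (fragments per kilobase of transcript, scaled to the mapped fragments of a library), which allow genes to be compared per length. In bulk RNA, fewer cells with a transcript and less of it per cell cannot be told apart.

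All 10 genes had lower mean FPKM in Ras-induced than in control mitotic cells. Once the libraries were scaled to other mitotic markers, themselves lower in Ras-induced cells, 6 of the 10 log2 fold changes turned above 0. That scaling raises every fold change and takes away any fall shared with the markers. In the deposited values 6 genes were altered, all lower: PKMYT1, CDC25A, CCNA2, CDC25B, CCNB2 and PLK1. A gene is called altered when its adjusted p (limma on log2(FPKM + 1), Benjamini-Hochberg over 13993 tested genes) was at or under 0.05. Of all tested genes 16.7% were altered, 5.67% in the lower direction, and 37.3% had a log2 fold change below 0. The fall of PKMYT1 to 36.0% of its control mean was the largest of the 6, the means of the other 5 altered genes lying between 65.7% and 83.1% of control. The median log2 fold change was -0.31 for the 10 genes and 0.10 for all tested genes. In 7 of the 10 genes the 3 Ras-induced values all lay under the 3 control values, as they did in 12.8% of all tested genes, and groups that did not overlap in either direction made up 39.9% of them. The summed FPKM of the 10 genes was 1226 to 1233 in the control and 951 to 1054 in the Ras-induced libraries.

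The count of altered genes rested on all 6 libraries. Without control library 2 only PKMYT1 remained altered (1 of 10), without Ras-induced library 3 PKMYT1 and CDC25A did (2 of 10), and without control library 1 CCNA2 did as well (3 of 10). The test was also repeated under 13 other settings (another pseudocount, 2 other filters on low values, 2 scalings of the libraries, no trend in the variance, a block for the replicate number, and each of the 6 libraries left out). PKMYT1 was altered under all 13, CDC25A under 12, CCNA2 under 11, CCNB2 and CDC25B under 7 each, and PLK1 under 3. Scaling to other mitotic markers, a setting added after the data were seen and not among the 13, left PKMYT1 as the only altered gene.

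**Figure D1:**
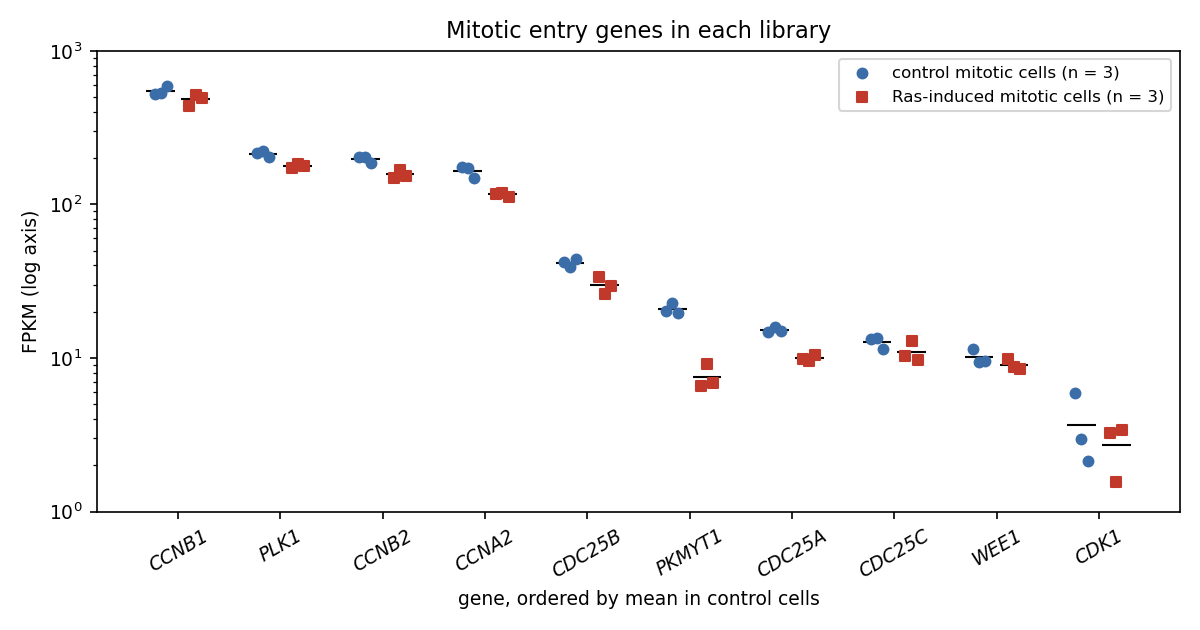
FPKM (log axis) of each gene in each library, genes ordered by their control mean, with circles for the 3 control and squares for the 3 Ras-induced libraries and a line at each group mean. PKMYT1 shows the widest gap between groups, from 20.9 to 7.53 FPKM, while the CDK1 points are the most scattered.

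Promoter sequence is shown because most of these genes moved together and are known as targets of cell-cycle promoter elements. The CCAAT box binds NF-Y, and the cell cycle homology region (TTTGAA or the variant TTCGAA) binds the DREAM and MuvB complexes that repress such genes in G1 and activate them in G2. RefSeq promoters (GRCh38.p14) were found for 8 of the 10 genes, in 15 entries, and not for PKMYT1 and WEE1. The letters CCAAT, searched on both strands, occurred in an entry of all 8. TTTGAA or the variant TTCGAA, also searched on both strands, occurred in an entry of 5 (CDK1, CCNB2, CDC25B, CDC25C and PLK1). Counted by entry, 11 of the 15 held CCAAT, 7 held TTTGAA or its variant, and 4 held neither. Among all 35116 promoter entries of the same 300 bases, 34.6% held CCAAT, 16.4% held TTTGAA or the variant TTCGAA, and 6.38% held both kinds. A match of letters is a description and not a binding site. The 100 bases just upstream of the start site follow for the 5 genes with a single promoter entry, 5′ to 3′ on the gene's strand. Capitals mark matches to the letters searched, or to their reverse complement. Other spellings of the homology region were not searched, so that a window without such a match may still hold one.
CCNA2 (chr4:121823884-121823983, minus strand): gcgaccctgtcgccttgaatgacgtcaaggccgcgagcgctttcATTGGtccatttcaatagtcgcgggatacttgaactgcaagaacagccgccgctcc
CCNB1 (chr5:69167050-69167149, plus strand): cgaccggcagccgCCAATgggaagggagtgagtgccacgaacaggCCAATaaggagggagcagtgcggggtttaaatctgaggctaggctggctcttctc
CCNB2 (chr15:59105046-59105145, plus strand): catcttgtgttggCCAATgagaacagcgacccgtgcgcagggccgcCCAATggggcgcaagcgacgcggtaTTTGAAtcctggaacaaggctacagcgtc
CDC25A (chr3:48188418-48188517, minus strand): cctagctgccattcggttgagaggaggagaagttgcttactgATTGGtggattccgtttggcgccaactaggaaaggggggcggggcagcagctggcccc
PLK1 (chr16:23678789-23678888, plus strand): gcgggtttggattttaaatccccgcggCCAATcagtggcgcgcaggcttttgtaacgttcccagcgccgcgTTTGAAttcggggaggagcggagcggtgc

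Matches to both elements occurred in an entry of altered genes (CCNB2, CDC25B and PLK1) and of unaltered ones (CDK1 and CDC25C), and among the genes with a match to CCAAT and to neither spelling searched for the homology region, CCNA2 and CDC25A were altered and CCNB1 was not.

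PKMYT1 (ENSG00000127564, chromosome 16 of GRCh37 from 3018025 to 3030480), the kinase that phosphorylates CDK1 on cytoplasmic membranes, measured 20.2, 22.9 and 19.7 FPKM in the control and 6.53, 9.20 and 6.86 FPKM in the Ras-induced libraries. Every control value was more than double every Ras-induced value. The group means were 20.9 ± 1.73 FPKM and 7.53 ± 1.45 FPKM (SD, n = 3 each), which is a log2 fold change of -1.37 with a standard error of 0.14 (limma, adjusted p = 0.00305). Only 1.80% of tested genes lay at or under this fold change. Its 95% interval, -1.70 to -1.04, lay wholly under those of the other 8 genes apart from CDK1, whose interval was wide. In the annotation, 1228 exonic bases of PKMYT1 (24.7% of the gene's exon bases) are shared with PAQR4 on the opposite strand, and the library kit named in the labels does not keep the strand. PAQR4 was listed at 7.80, 7.95 and 6.20 FPKM in control and 1.96, 4.59 and 1.75 FPKM in Ras-induced cells (log2 fold change -1.21, adjusted p = 0.0331 from limma), and the reads of the pair in the shared bases cannot be told apart.

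WEE1 (ENSG00000166483, chromosome 11 from 9595217 to 9615004), the nuclear counterpart of PKMYT1, was listed at 11.4, 9.43 and 9.61 FPKM in the control and 9.83, 8.72 and 8.53 FPKM in the Ras-induced libraries. The groups overlapped. The log2 fold change of -0.15 had a 95% interval of -0.41 to 0.11 (adjusted p = 0.387 from limma), so that a fall of the size seen for PKMYT1 lies outside the interval. The PKMYT1 level was 1.77, 2.43 and 2.05 times the WEE1 level in the control libraries, and the ratio was 0.664, 1.05 and 0.804 in the Ras-induced libraries. The ratio is taken within a library and does not move with a common scaling of it, and the groups did not overlap.

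Among the CDC25 phosphatases, CDC25A and CDC25B fell and CDC25C was not altered. CDC25A (ENSG00000164045, chromosome 3 from 48198636 to 48229907), which also acts at the start of S phase, measured 14.7, 15.8 and 15.1 FPKM in the control and 9.88, 9.60 and 10.5 FPKM in the Ras-induced libraries. The 2 groups were well apart and each was tight. The Ras-induced mean was 65.7% of control, or -0.56 ± 0.08 on the log2 scale (standard error; limma, adjusted p = 0.00885). Of the 13 other settings, that without control library 2 lost the call (adjusted p = 0.0519, the range over the 13 being 0.00533 to 0.0519), and scaling to other mitotic markers, described further on, lost it too (-0.16, adjusted p = 0.215).

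CDC25B (ENSG00000101224, chromosome 20 from 3767419 to 3786768), regarded as a starter of CDK1 activation at the centrosome, was the most abundant of the 3, with 42.1, 39.0 and 43.9 FPKM in the control and 33.6, 26.2 and 29.5 FPKM in the Ras-induced libraries. No Ras-induced value reached the lowest control value. This was a log2 fold change of -0.48 ± 0.11 (standard error; limma, adjusted p = 0.0309). The call was lost without the low-value filter and when any library other than Ras-induced library 1 was left out (adjusted p 0.0178 to 0.101 over the 13 settings), and on scaling to other mitotic markers (-0.05, adjusted p = 0.673).

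CDC25C (ENSG00000158402, chromosome 5 from 137620958 to 137674044), which is itself activated by CDK1 and PLK1, was listed at 13.3, 13.4 and 11.5 FPKM in the control and 10.2, 12.9 and 9.67 FPKM in the Ras-induced libraries. The second Ras-induced library lay within the control range. Its log2 fold change was -0.21 with a 95% interval of -0.52 to 0.10 (adjusted p = 0.303 from limma). The gene FAM53C on the opposite strand shares 293 exonic bases (8.80%) with CDC25C and had Ras-induced values of 17.9 to 20.2 FPKM against 14.7 to 17.8 FPKM in control.

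Set against each other within each library, the inhibitory kinases (PKMYT1 + WEE1) had a summed FPKM of 0.450, 0.474 and 0.416 times that of the CDC25 genes in the control libraries and 0.305, 0.368 and 0.310 times in the Ras-induced libraries. This ratio was lower in each Ras-induced library than in any control library. The difference of the log2 ratio was -0.45 (SD between replicates 0.13). Taken singly, a split added after the values were seen, the ratios of the 2 kinases to the CDC25 sum went opposite ways. Neither kinase itself rose: WEE1 was not altered (log2 fold change -0.15), while CDC25A and CDC25B in the sum fell (-0.56 and -0.48). PKMYT1 was 0.287, 0.336 and 0.280 times the CDC25 sum in control and 0.122, 0.189 and 0.138 times in Ras-induced libraries, whereas WEE1 was 0.163, 0.138 and 0.136 times in control and 0.183, 0.179 and 0.172 times in Ras-induced libraries, neither pair of groups overlapping. No test is given for these ratios, which were formed from chosen genes. Within the CDC25 sum, CDC25B held 57.1% to 62.3% in control and 53.8% to 62.5% in Ras-induced libraries, ranges that overlapped.

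Of the cyclins, CCNA2 and CCNB2 fell and CCNB1 was not altered. CCNA2 (cyclin A2, ENSG00000145386, chromosome 4 from 122737599 to 122745038), which partners CDK2 in S phase and CDK1 in G2 and is destroyed early in mitosis, measured 174.5, 171.2 and 149.0 FPKM in the control and 116.4, 119.0 and 112.4 FPKM in the Ras-induced libraries. The groups were separated, with the Ras-induced libraries close together. CCNA2 thus changed by -0.50 ± 0.08 on the log2 scale (standard error; limma, adjusted p = 0.0125). The call was lost without control library 2 or Ras-induced library 3 (adjusted p = 0.0557 and 0.0574, the range over the 13 settings being 0.00422 to 0.0574), and also on scaling to other mitotic markers (-0.07, adjusted p = 0.680). EXOSC9 on the opposite strand shares 254 exonic bases (9.24%) with CCNA2 and was not altered (log2 fold change 0.16, adjusted p = 0.238 from limma).

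CCNB2 (cyclin B2, ENSG00000157456, chromosome 15 from 59397325 to 59417244), found mainly at the Golgi, measured 203.3, 202.0 and 185.8 FPKM in the control and 149.3, 168.1 and 152.4 FPKM in the Ras-induced libraries. These did not overlap either. CCNB2 changed by -0.33 ± 0.08 on the log2 scale (standard error; limma, adjusted p = 0.0371). Leaving out control library 1 or 2, Ras-induced library 1 or 3, the low-value filter or the variance trend ended the call, the adjusted p ranging from 0.00864 to 0.120 over the 13 settings, and scaling to other mitotic markers turned the direction (0.10, adjusted p = 0.513).

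CCNB1 (cyclin B1, ENSG00000134057, chromosome 5 from 68462962 to 68474072), the principal mitotic cyclin, had the highest level of the 10 genes in each library. It measured 526.3, 533.4 and 589.5 FPKM in the control and 439.6, 515.5 and 491.0 FPKM in the Ras-induced libraries. Although the values did not overlap, the log2 fold change of -0.19 did not pass the test (95% interval -0.41 to 0.03, adjusted p = 0.196 from limma). A fall larger than that of CCNA2 lies outside this interval.

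PLK1 (ENSG00000166851, chromosome 16 from 23688977 to 23701688), which phosphorylates CDC25C, WEE1 and PKMYT1, measured 214.4, 222.7 and 204.4 FPKM in the control and 172.2, 183.6 and 177.4 FPKM in the Ras-induced libraries. The highest Ras-induced value lay under the lowest control value. For PLK1 the log2 fold change of -0.27 ± 0.07 (standard error; limma, adjusted p = 0.0475) passed the test narrowly. It held under 3 of the 13 other settings (adjusted p 0.0134 to 0.129), and leaving out any library other than control library 3 ended the call. Scaling to other mitotic markers turned the direction (0.17, adjusted p = 0.256). A transcript on the opposite strand that shares 553 exonic bases (11.6%) with PLK1 was listed at no more than 0.171 FPKM.

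CDK1 (ENSG00000170312, chromosome 10 from 62538089 to 62554610), the kinase at the centre of the switch, was listed at only 5.93, 2.99 and 2.13 FPKM in the control and 3.23, 1.56 and 3.4 FPKM in the Ras-induced libraries. These were the lowest levels of the 10 genes in each library, and the B-type cyclins together were listed at 123.1 to 363.4 times CDK1 in control and 182.3 to 438.9 times in Ras-induced libraries. The groups overlapped and their spread was wide, with means of 3.68 ± 1.99 and 2.73 ± 1.02 FPKM (SD, n = 3 each). The log2 fold change of -0.29 had a 95% interval of -1.12 to 0.54 (adjusted p = 0.597 from limma), and it was 0.04 without control library 1. Neither a fall like that of CCNA2 nor a rise of the same size lies outside this interval. Of the genes matched to the annotation none overlapped the CDK1 locus, and why the table lists CDK1 so far under its cyclins was not tested. Without reads, a low level and an error in the listed value cannot be told apart, so that the place of CDK1 in the order of levels and its ratios hold only for the values as listed.

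Ordered by level in control cells, the genes ran from CCNB1 through PLK1, CCNB2, CCNA2, CDC25B, PKMYT1, CDC25A, CDC25C and WEE1 to CDK1. No neighbouring pair overlapped among the control libraries, although PLK1 and CCNB2, and CDC25C and WEE1, came close. In Ras-induced cells PKMYT1 moved from the sixth to the ninth place. There its libraries overlapped those of WEE1, WEE1 overlapped CDC25A, and CDC25A overlapped CDC25C, so that no neighbouring pair among these 4 genes was ordered beyond its spread, while PKMYT1 still lay under CDC25A and CDC25C in every library.

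**Figure D2:**
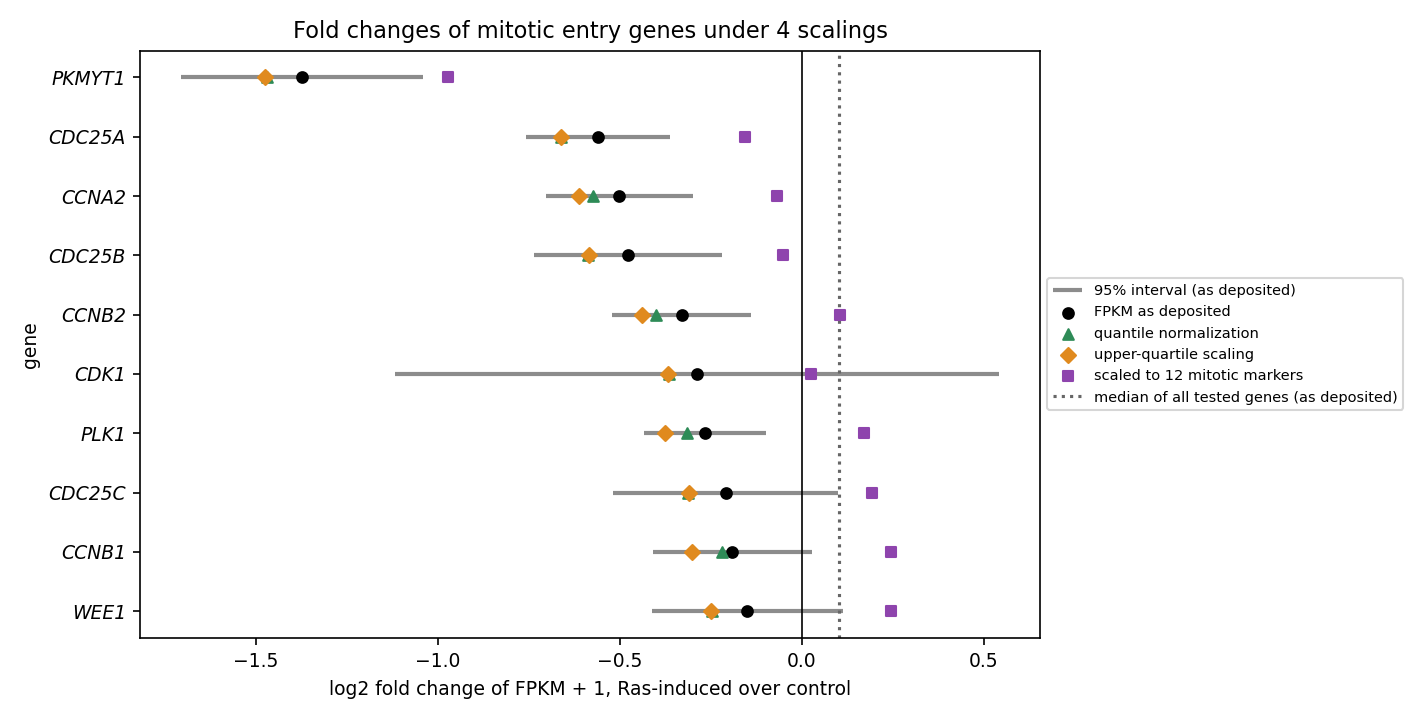
Log2 fold change of FPKM + 1 (Ras-induced over control) of each gene under 4 scalings of the libraries, with the 95% interval for the deposited values in grey. PKMYT1 stays at -0.97 or lower under each scaling, while the other 9 genes lie between -0.16 and 0.25 once libraries are scaled to 12 other mitotic markers.

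Other transcripts of dividing cells moved with the switch. Of 12 mitotic markers outside the 10 genes (AURKB, BUB1, BUB1B, CENPE, CENPF, KIF11, KIF20A, TOP2A, TTK, NUSAP1, CDC20 and HMMR), 7 were altered, all lower, and all 12 had log2 fold changes below 0 (median -0.42). Their summed FPKM was 1159 to 1300 in control and 895 to 957 in Ras-induced libraries. Of 14 S-phase markers 13 were tested and 9 were altered, all lower (median -0.71), with sums of 727 to 778 and 444 to 559 FPKM. Among all tested genes 5.67% were altered in the lower direction and 37.3% had a log2 fold change below 0. The log2 fold changes of the 12 mitotic markers ran from -0.81 to -0.06, a range that held those of the altered switch genes other than PKMYT1. Those of the S-phase markers ran from -1.67 (TYMS) to -0.03 (CCNE1), a range that held PKMYT1 (-1.37) as well. When each library was scaled to the geometric mean of the 12 mitotic markers, an alternative chosen after seeing the data, PKMYT1 was the only switch gene altered (log2 fold change -0.97, adjusted p = 0.00558 from limma, the range over the 13 settings being 0.00153 to 0.0281). The other 9 then ran from -0.16 (CDC25A) to 0.25 (CCNB1), none of them altered. The geometric mean of the markers was 68.4, 68.6 and 77.3 FPKM in control and 53.9, 50.0 and 54.1 FPKM in Ras-induced libraries. Dividing by it raises the log2 fold change of every gene by a similar amount, less at low FPKM. A fall shared with the markers is thereby taken away, and a value above or below 0 is relative to them.

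The 3 tested genes whose profile over the 6 libraries was most like that of PKMYT1, by root mean square difference of centred log2(FPKM + 1), were MCM3, PCSK7 and CUEDC1 (0.067, 0.092 and 0.094). MCM3, a subunit of the replicative helicase, measured 29.0, 35.5 and 31.8 FPKM in control and 11.01, 14.5 and 11.9 FPKM in Ras-induced libraries. PCSK7 and CUEDC1, which are on neither marker list, had control means of 77.7 and 29.2 FPKM and Ras-induced means of 32.6 and 11.75 FPKM.

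Of 57 partner genes of the switch in 8 lists, 52 were tested. Of these 8 were altered upward and 4 downward, against 11% and 5.67% of all tested genes, with a median log2 fold change of 0.08. Their groups did not overlap in 11 genes that were lower and 19 that were higher, beside 12.8% and 27.1% of all tested genes. With 1 library left out the count of altered partner genes was 2 (control library 2), 3 (Ras-induced library 1, and likewise Ras-induced library 3), 4 (control library 1), 9 (Ras-induced library 2) or 13 (control library 3). How many of the partner genes were higher or lower depended on the scaling, and came to 5 higher and 8 lower after quantile normalization and 4 higher and 9 lower after scaling to a common upper quartile. For all genes it went from 1543 higher and 793 lower to 1044 and 1109, and to 921 and 1101. Over the whole table the centre of the log2 fold changes moved from 0.10 in the deposited values to a median of 0.01 and 0.005 under these 2 scalings. The 6 altered switch genes were altered and lower under both.

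In the Greatwall branch, which shields CDK1 substrates by inhibiting the phosphatase PP2A-B55, 4 of 9 tested genes were altered, beside 16.7% of all tested genes. The Greatwall kinase gene MASTL measured 21.0, 23.3 and 17.5 FPKM in control and 11.8, 14.5 and 11.4 FPKM in Ras-induced cells, or -0.67 on the log2 scale (limma, adjusted p = 0.0233). The opposite direction was seen for PPP2R1B, a PP2A scaffold subunit (0.62, adjusted p = 0.0154), for its inhibitor ENSA (0.37, adjusted p = 0.034) and for the B55 subunit PPP2R2A (0.33, adjusted p = 0.0329), all from limma. PPP2CA, the catalytic subunit, had the highest level of the unaltered genes (172 and 186 FPKM). Each of the 4 calls was lost without control library 1, control library 2, Ras-induced library 1 or Ras-induced library 3. Over the 13 other settings the call of PPP2R1B held under 9, that of MASTL under 8, that of PPP2R2A under 6 and that of ENSA under 4. PPP2R2A was not altered after either scaling of the libraries.

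Among PLK1 activators and the other polo-like kinases, the stress-responsive PLK3 rose from 7.30, 4.97 and 6.06 FPKM to 16.0, 14.9 and 17.5 FPKM (log2 fold change 1.28, adjusted p = 0.00384 from limma). PLK2 rose from 11.9, 13.8 and 16.9 FPKM to 30.8, 28.8 and 23.1 FPKM (0.92, adjusted p = 0.0135 from limma). TPX2, which activates AURKA on the spindle, fell (-0.46, adjusted p = 0.0163 from limma), and AURKA was not altered (273 and 248 FPKM). PLK4, the polo-like kinase of centriole duplication, was not altered (0.06, adjusted p = 0.587 from limma). The PLK3 call held under all 13 other settings. That of PLK2 held under 9 and was lost without control library 1 or 2 or Ras-induced library 1 or 2, and that of TPX2 held under 9 and was lost without control library 1 or 2 or Ras-induced library 1 or 3.

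Of the 8 genes through which checkpoints act on the switch, CDKN1A, the CDK inhibitor p21, was altered. It measured 4.58, 3.91 and 5.54 FPKM in control and 31.0, 8.24 and 14.6 FPKM in Ras-induced libraries (1.56 on the log2 scale; limma, adjusted p = 0.0496), and was altered under 4 of the 13 other settings (adjusted p 0.0322 to 0.162), the call being lost without any library other than Ras-induced library 2. The 7 others, ATM, ATR, CHEK1, CHEK2, MAPK14, MAPKAPK2 and GADD45A, were not, and MAPKAPK2 had the highest level among them (102 and 85.6 FPKM). Under the 13 other settings CHEK1 passed in 4 and MAPKAPK2 in 2. Of the CDK-activating kinase and CKS genes, CDK7 was altered (0.47, adjusted p = 0.0315 from limma) and CKS2 (497 and 559 FPKM) was not. The CDK7 call held under 7 of the 13 other settings (adjusted p 0.0223 to 0.0917) and was lost without the low-value filter and without any library other than control library 3. Of the 7 genes for 14-3-3 proteins, which hold phosphorylated CDC25 in the cytoplasm, 2 had an unadjusted p under 0.05 (limma). The same held for 4707 of all 13993 tested genes. None of the 7 passed limma's test at an adjusted p of 0.05 (YWHAZ was the most abundant, at 480 and 461 FPKM). YWHAH (-0.44, adjusted p = 0.0547 from limma) lay just outside and passed under 5 of the 13 other settings, and YWHAB passed under 1. None of the 6 ubiquitin ligase and isomerase genes passed at an adjusted p of 0.05 either (SKP1 was the most abundant, at 401 and 450.5 FPKM). An unadjusted p under 0.05 was found for 1 of the 6, beside 4707 of all 13993 tested genes (limma). BTRC passed under 1 of the other settings. CDK2 was the only tested gene of its list and was not altered (115 and 90.1 FPKM).

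Of 10 transcription factor genes for G2 and M phase promoters, MYBL2 fell from 51.7, 57.1 and 44.6 FPKM to 11.4, 17.4 and 10.1 FPKM, a log2 fold change of -1.93 (adjusted p = 0.00338 from limma) that held under all 13 other settings. RBBP4, a MuvB subunit, also fell (-0.75, adjusted p = 0.011 from limma) in a call lost without control library 2 or Ras-induced library 3, and NFYA, an NF-Y subunit, rose (0.33, adjusted p = 0.0431 from limma) in a call held under 2 of the 13 settings. FOXM1 had 171.6, 163.3 and 128.5 FPKM in control and 119.9, 116.5 and 115.5 FPKM in Ras-induced libraries, which did not pass the test (-0.38, adjusted p = 0.0694 from limma) though the groups did not overlap. It passed under 3 of the 13 other settings.

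**Figure D3:**
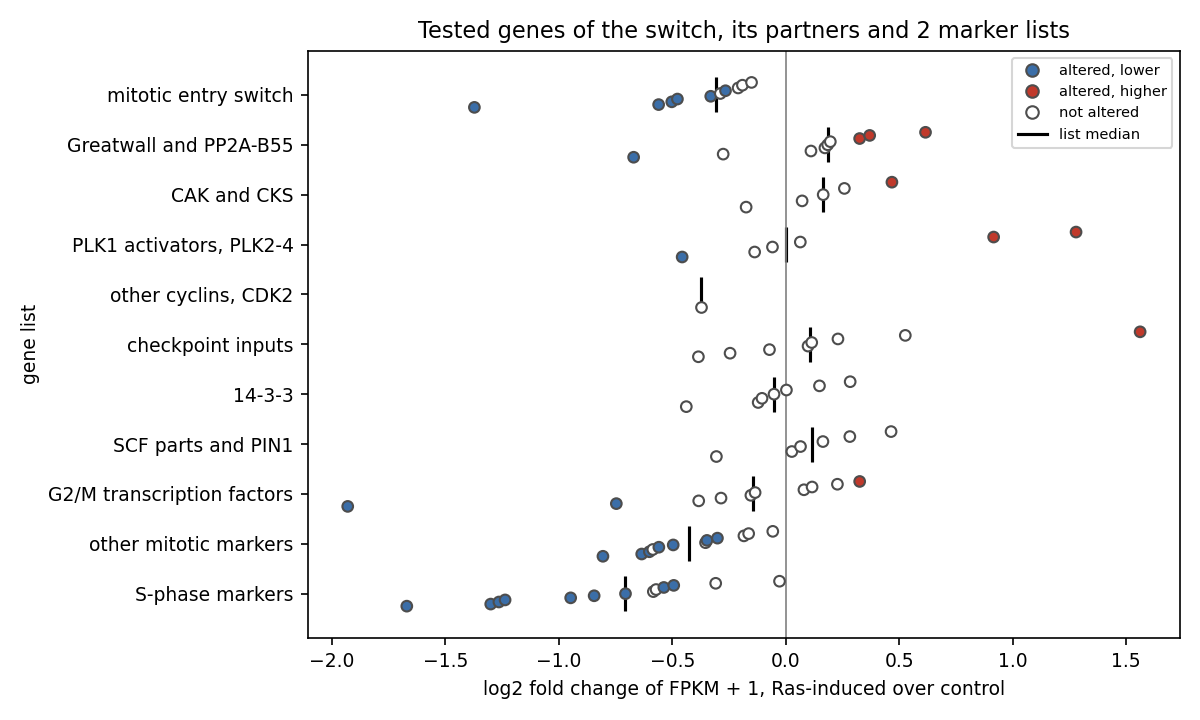
Log2 fold change of FPKM + 1 (Ras-induced over control) of every tested gene in the switch, its 8 partner lists and 2 marker lists, filled where altered, with a line at each list's median. In these deposited values, before any scaling to mitotic markers, the switch genes all lie below 0 (median -0.31), as do the 12 mitotic markers (median -0.42), whereas most partner lists straddle 0.

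As a check of the labels, HRAS, whose reads can come from the gene or the construct, was listed at 1140 to 1176 FPKM in control and 1439 to 1847 FPKM in Ras-induced libraries (adjusted p = 0.0431 from limma). Of 10 genes known as ERK targets 7 were altered, all higher, beside 11% of all tested genes. Of 7 fibroblast markers, with VIM at 2149 and 2248 FPKM, 2 were altered, both lower, beside 5.67% of all tested genes. The summed level of the list was 4735 to 5313 FPKM in control and 3096 to 4324 FPKM in Ras-induced libraries. The part of this in the values above was not tested. The endothelial markers PECAM1, VWF, CDH5 and KDR reached at most 0.0988 FPKM, and the blood cell markers PTPRC, CD3E and CD14 had means of at most 0.123 FPKM, beside CD68 at 27.8 and 33.2 FPKM. Epithelial EPCAM and CDH1 had means of at most 1.24 FPKM, whereas KRT18 stood at 48.1 and 57.9 FPKM. The other keratins of the list were also present, KRT8 at 12.1 and 11.6, KRT5 at 11.7 and 11.6, and KRT14 at 10.2 and 8.45 FPKM. The depth of the libraries was estimated here relative to each other, from the steps between low FPKM values, and was 0.838 to 1.16 times that of control library 1.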

How the data were processed

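Poly(A) RNA of 6 libraries was sequenced on a NextSeq500. The authors aligned paired-end reads to hg19 with Tophat2 and Ensembl build 73 junctions and deposited FPKM values per gene calculated with Cufflinks. The submitters' processing notes also list Trim Galore 0.3.0. No scaling between libraries is stated. Columns name the group and a number, not the sample. A second header line was dropped, 120 of 63129 genes with more than 6 values were left out, and 18 unnamed columns were not used. The deposited cuffdiff comparison (group FPKM, fold changes, p-values) was not used.

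FPKM is not a count. Testing was limited to the genes whose mean over the libraries reached 1 FPKM and used log2(FPKM + 1), which understates changes of low genes, with limma 3.58.1 in R 4.3.3 (lmFit, eBayes with trend, two-sided). On simulated data it called 73 of 100 genes changed by 1 log2 unit, 91 of 100 changed by 2, and 9 unchanged genes. Smaller changes, such as those of most switch genes, were not simulated, so that a gene called not altered may still differ. The labels do not say that libraries are separate cultures (the study's methods describe independent repeats), and p-values measure the spread between them. The members and lists were chosen with earlier results of these data known. The rule for naming partner genes was the up to 2 largest altered rises and falls of each list and its unaltered gene of highest mean. PPP2R2A was added after its values were seen. Also named outside this rule are PLK4, the other unaltered checkpoint genes, and YWHAH, YWHAB and BTRC. HRAS and the 3 tested genes most like PKMYT1 are also named. The same search for CDK1 is not reported here. Positions are from GENCODE 44 on GRCh37, the same build as hg19. Python 3.11.15 with pandas 2.3.3 made tables and matplotlib 3.10.9 figures. Read counts were not used here, so absolute depth is not given.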

Additional observations from a re-analysis of the deposited data

How the results depend on the processing

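Over the 13 other settings the log2 fold changes of PKMYT1, CDC25A, CCNA2, CDC25B, CCNB2 and PLK1 stayed below 0. Without a filter on low values, where 29362 genes were tested, 1518 genes were altered in place of 2336, 3 in place of 6 switch genes (PKMYT1, CDC25A and CCNA2), and 7 in place of 12 partner genes. Leaving out each library in turn gave 860 (Ras-induced library 3) to 1872 (control library 3) altered genes, 1 to 5 switch genes and 2 to 13 partner genes, in fits with fewer samples. Scaled to the mitotic markers, 1 switch gene was altered, CCNB2 reversed to 0.10 and PLK1 to 0.17. This scaling takes away any fall shared with the markers, and why the markers were lower was not tested. Whether the number in the column name pairs the libraries is not known. Deviations of same-numbered libraries correlated at 0.030 on average across genes, and of differently numbered ones at -0.015. Control libraries 2 and 3 correlated best with their own number (0.043 and 0.048), and control library 1 did not (-0.003). Values this small cannot decide the question. With the replicate block, 2310 genes, 5 switch genes (PLK1 was lost, adjusted p = 0.0643) and 12 partner genes were altered, among them BTRC and CHEK1 (adjusted p = 0.0367 and 0.0407), which were not altered without it, while ENSA and NFYA were lost (0.0609 and 0.0703), and the calls with and without the block had 1940 genes in common. The difference of the log2 ratio of PKMYT1 + WEE1 to the CDC25 genes ranged from -0.54 to -0.40 with a library left out and was -0.44 after quantile normalization, and that of PKMYT1 to WEE1 ranged from -1.498 to -1.17, while that of B-type cyclins to CDK1 ranged from -0.27 to 0.51. Of the partner gene values under the other settings, 595 kept their side of the threshold, 61 lost a call and 18 gained one. With 3 libraries a group, a single gene's exact permutation test could not go under 0.1, and CDK1 at under 6 FPKM had the largest standard error of the 10 switch genes (0.35).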
